A study of Homo sapiens with 8 samples.

Results

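The guide RNA sgEZH2-2 was compared with the empty vector in HSC-5, an established line of human cutaneous squamous cell carcinoma, over every gene of the deposited count table. The comparison takes 5 of the 8 libraries: the 3 labelled sgEZH2-2 and the 2 labelled control, chosen by the group named in each column header. All the cells, controls included, stably carried Cas9, were grown in DMEM with 10% serum and were selected with G418, so the groups differ by the empty vector or the guide. Polyadenylated RNA was read with a stranded kit. Whether a group is a clone or a pool, and whether its libraries are separate cultures, is not in the labels. The p-values therefore rest on a spread between libraries that may be technical. Per the series' design text, the authors left out 1 further control that clustered apart, so the spread between controls may be understated. The other 3 libraries carry a second guide, sgEZH2-1. They entered the estimate of spread and a direct test of the difference between the guides, which uses no control library.

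EZH2 carries the methyltransferase activity of the Polycomb complex PRC2, which also needs EED and SUZ12. The complex methylates lysine 27 of histone H3, and the mark keeps the promoters of developmental and lineage genes silent. In epidermis, PRC2 is known for holding back differentiation genes and genes of other lineages in the basal layer. Loss of the mark is generally followed by expression of genes that had been silent, while other genes can change downstream of those.

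The libraries compared held between 12.6 M counts (sgEZH2-2 library 2) and 15.5 M counts (control 2). Levels are given in CPM, a count relative to the scaled library total, and libraries are numbered by column order. Of 20294 genes, 13124 had enough counts to be tested. In library 1 of sgEZH2-2, mitochondrial transcripts took 1.12% of counts, against 1.57% and 1.503% in libraries 2 and 3 and 1.53% to 1.71% in the other 5 libraries. This library also lay nearer to the sgEZH2-1 libraries, with a standard deviation of the log2 difference over genes of 0.437 to 0.466, against 0.485 to 0.548 for libraries 2 and 3. Keratinocyte markers summed to 3438 to 3465 CPM in the controls and 2910 to 2997 CPM with sgEZH2-2, although KRT14, a keratin of basal keratinocytes, was under 2 CPM in every library.

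The targeted transcript was checked first. EZH2 (chromosome 7, 148807383 to 148884321, minus strand, GRCh38) was at 82.7 and 84.1 CPM in the controls and at 73.9, 67.6 and 65.1 CPM with sgEZH2-2. All 3 guide libraries lay below both controls, at 82.5% of the control mean, and the log2 fold change was -0.28 ± 0.08 (SE). This did not pass the threshold of 0.05 (adjusted p = 0.0699 in edgeR's quasi-likelihood test). Without the third sgEZH2-1 library the adjusted p of the same test was 0.0473, and the cause of that change was not tested. No other single library left out changed the call, and the adjusted p reached 0.214 without sgEZH2-2 library 3. With sgEZH2-1 EZH2 stood at 56.4, 56.3 and 48.0 CPM, and the direct difference between the guides was 0.36 higher with sgEZH2-2 (log2, adjusted p = 0.00844). A gene count shows neither edits at the locus nor EZH2 protein.

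No other core member of PRC2 was called with sgEZH2-2. SUZ12, a scaffold of the complex, was at 76.5 and 96.2 CPM in the controls and at 98.4, 90.2 and 95.4 CPM with the guide, so the groups overlapped. EED, the subunit that reads methylated lysine 27, was at 52.8 and 55.9 CPM in the controls and at 58.7, 60.6 and 56.5 CPM with the guide. EZH1, the alternative catalytic subunit, was at 25.1 and 23.5 CPM against 22.2, 21.5 and 19.4 CPM, with an adjusted p of 0.194. Over the 13 PRC2 subunits tested, 0 were called in edgeR and 0 in DESeq2, with 3 at an unadjusted p under 0.05, where 8.68% of all tested genes were called in either direction.

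With sgEZH2-2, 811 genes were higher and 328 were lower than in the controls, 6.18% and 2.5% of the genes tested. The rises were larger than the falls. The median log2 change was 1.00 among the called rises and -0.28 among the called falls, and 406 genes (3.09% of those tested) rose at least 2-fold while 9 fell as much, or 5 without control 1 and 14 without sgEZH2-2 library 1. The 2 directions also started from different levels. Among the rises 28.7% were under 1 CPM in the controls, against 7.88% of all genes tested, and the median level went from 4.12 CPM in the controls to 8.93 CPM. Among the falls 96.6% were over 10 CPM in the controls, against 72.2% of all tested, and the median went from 96.5 to 79.4 CPM. These shares depend partly on the filter on low counts. A gene near silence in the controls was tested only where guide libraries held counts, and a fall from such a level can hardly be called.

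**Figure D1:**
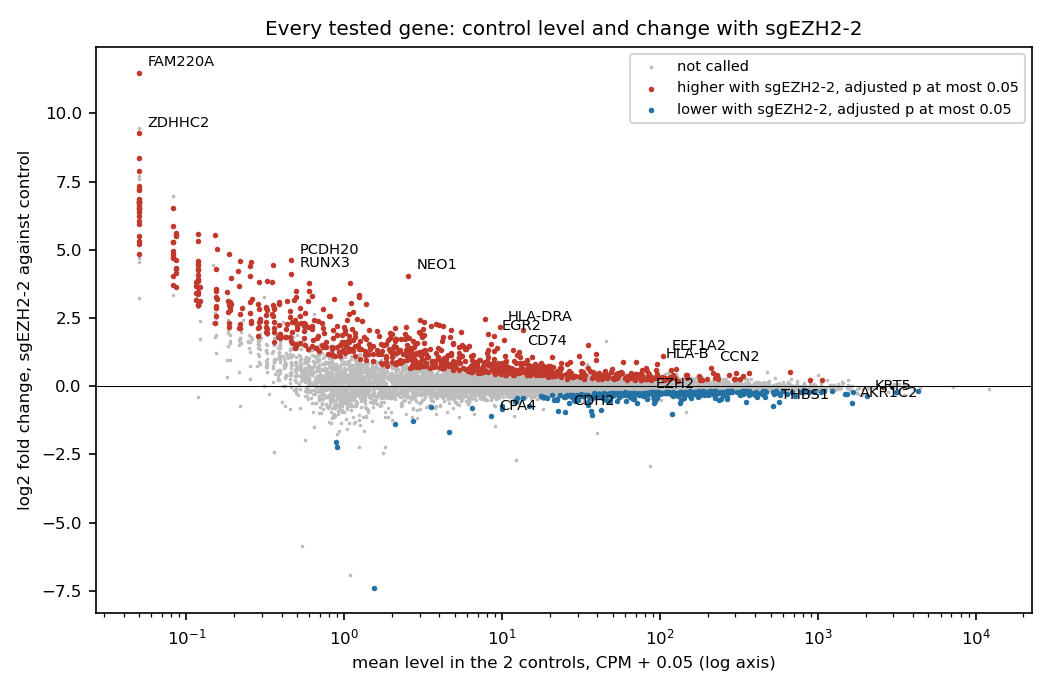
Each point is 1 tested gene, with its mean level in the 2 controls (CPM + 0.05, log axis) on the horizontal axis and its log2 fold change with sgEZH2-2 on the vertical axis. The 811 called rises (red) spread far above 0 at low control levels, while the 328 called falls (blue) lie close to 0 at high control levels.

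In 810 of the 811 rises all 3 guide libraries lay above both controls, and in 328 of 328 falls all 3 lay below. Over all tested genes 19.3% lay entirely above and 20.5% entirely below, so separation by itself is common here. Both counts depended on the controls. Without control 1 there were 439 rises and 82 falls, and without control 2 there were 474 rises and 105 falls. Falls also dropped to 135, 110 and 127 without sgEZH2-2 library 1, 2 or 3, and to 129 without the second sgEZH2-1 library. In bulk RNA, a change in the share of cells that hold a transcript and a change in its level per cell cannot be told apart.

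The largest well-covered rises were of genes near silence in the controls. NEO1 (chromosome 15, 73051710 to 73305206, plus strand), which encodes neogenin, a receptor for netrins and repulsive guidance molecules, was at 2.70 and 2.28 CPM in the controls and at 40.7, 39.8 and 43.4 CPM with sgEZH2-2. The 3 libraries sat close together and far above the controls, and the log2 fold change was 4.05 ± 0.13 (SE, adjusted p = 1.98e-07). RUNX3, a Runt-domain transcription factor, was at 0.426 and 0.391 CPM in the controls and at 7.66, 7.79 and 6.41 CPM with the guide, a log2 change of 4.13. SATB1, which organizes chromatin loops, went from 0.213 and 0.391 CPM to 6.42, 6.92 and 7.09 CPM, a log2 change of 4.44. PCDH20, a protocadherin, had the largest fitted rise of this group, from 0.497 and 0.326 CPM to 11.4, 10.3 and 9.31 CPM (log2 4.63, adjusted p = 1.75e-05). These 4 genes kept their call when any single library was left out. SATB1 and PCDH20 overlap other annotated genes, as do MACROH2A2, RSAD2, IFITM2, AJUBA, SREBF1, HOXB9, LOX, AXIN2, TCF7, FGFR1, ACAT2, TRIM16, FXYD6, HLA-DMB, L1CAM, LRG1, THBS1 and PSMB9 below, so their counts may hold reads of the other gene.

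The same order of rise was seen in genes of unrelated function. GRK3, a kinase of G-protein-coupled receptors, rose by 3.47 on the log2 scale. MACROH2A2, a histone H2A variant, was at 0.568 and 0.587 CPM in the controls and at 6.35, 4.96 and 6.03 CPM with the guide (log2 3.30). LRP12, of the low-density lipoprotein receptor family, went from 0.994 and 1.37 CPM to 13.2, 10.4 and 11.3 CPM (log2 3.28). VLDLR, the very-low-density lipoprotein receptor, rose by 2.70 and COL6A2, a chain of collagen VI, by 3.04. Among these, the COL6A2 libraries were the most spread, at 6.35, 10.9 and 9.08 CPM, with library 1 lowest.

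Among the rises, 26 genes had 0 counts in both controls. ZDHHC2, a palmitoyltransferase, was at 4.90, 6.61 and 5.11 CPM with sgEZH2-2, 54.0 times a floor of 3 counts over both controls. FXYD6, a regulator of the sodium pump, reached 2.76, 3.62 and 2.59 CPM, 29.2 times that floor. HMGN5, a nucleosome-binding protein, reached 1.79, 2.12 and 2.44 CPM, 20.7 times the floor. HTR3A, a subunit of a serotonin-gated channel, reached 1.17, 1.81 and 1.37 CPM, 14.1 times the floor. These genes were chosen for 0 counts in both controls and entered the test through the guide libraries. Their absence from the controls is therefore the choice itself. Each was present in all 3 guide libraries. The floor stands for counting error of the controls only, and the guide counts entered without an interval. FAM220A, also at 0 in both controls, was not seen in every guide library and is described at the end.

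Levels that were already high also rose, by less. EEF1A2, a translation elongation factor typical of muscle and neurons, was at 114 and 93.8 CPM in the controls and at 212, 238 and 225 CPM with the guide (log2 1.11, adjusted p = 0.000727). CCN2, a matrix-associated growth factor, was at 217 and 203 CPM and then at 354, 288 and 365 CPM (log2 0.68). ID1, an inhibitor of helix-loop-helix factors, went from 136 and 115 CPM to 188, 202 and 189 CPM (log2 0.62). IER2, an immediate early gene, had a log2 change of 0.61, and its adjusted p was 0.0659 without control 2.

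The gene groups were described by counts of called members beside the shares over all tested genes, with no test of a list. Those shares, 6.18% higher and 2.5% lower, apply to every list below where they are not repeated. List members near silence in the controls were tested only where guide libraries held counts, and could hardly be called lower. In lists with many such members the counts and the median therefore lean toward rises through the filter. Among lists with at least 10 tested members, the greatest share of rises was in MHC class II, the molecules that present peptides to CD4+ T cells. Their genes share promoter elements, among them the Y box, an inverted CCAAT element bound by NF-Y, and are switched on through the coactivator CIITA. Of 15 tested members 9 rose (60.0%) and 1 fell, against 6.18% and 2.5% of all genes, with a median log2 change of 1.27 in the list and 0.0009 over all tested genes. Without either control 6 rises were called, and the 1 fall was called only with all libraries or without the first sgEZH2-1 library.

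The promoters of HLA-DRB1, HLA-DPB1 and HLA-DQB1 are shown as examples of class II windows that held a short motif. The 250 bases before the gene start are given from RefSeq (GRCh38.p14) on the strand of the gene, 5′ to 3′. Capitals mark GATTGG, which holds an inverted CCAAT, or its reverse complement CCAATC, searched on both strands. The reverse form holds CCAAT in the forward orientation, so it is not an inverted CCAAT on the strand shown. The window of HLA-DRB1 is chr6:32589849-32590098 on the minus strand, with the motif starting 47 bases before the gene. That of HLA-DPB1 is chr6:33075740-33075989 on the plus strand, with the reverse form at 75 bases. It held no GATTGG, and an inverted CCAAT lies in an unmarked cattgg farther upstream. Which stretch acts as the Y box was not tested. That of HLA-DQB1 is chr6:32666658-32666907 on the minus strand, with GATTGG at 89 bases and the reverse form at 64 bases.
HLA-DRB1: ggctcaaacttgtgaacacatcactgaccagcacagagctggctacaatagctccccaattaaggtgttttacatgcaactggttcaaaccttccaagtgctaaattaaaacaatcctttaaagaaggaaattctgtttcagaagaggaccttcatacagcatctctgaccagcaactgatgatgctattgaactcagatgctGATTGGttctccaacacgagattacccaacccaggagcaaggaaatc
HLA-DPB1: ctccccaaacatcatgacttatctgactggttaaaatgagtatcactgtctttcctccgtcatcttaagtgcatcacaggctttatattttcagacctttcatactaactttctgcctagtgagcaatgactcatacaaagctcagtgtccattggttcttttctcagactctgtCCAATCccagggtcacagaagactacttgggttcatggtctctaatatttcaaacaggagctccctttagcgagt
HLA-DQB1: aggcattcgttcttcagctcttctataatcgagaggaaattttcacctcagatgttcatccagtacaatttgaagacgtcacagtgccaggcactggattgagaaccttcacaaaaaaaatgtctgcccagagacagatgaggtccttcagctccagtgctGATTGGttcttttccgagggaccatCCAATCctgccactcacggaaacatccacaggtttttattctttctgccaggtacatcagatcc
Of 8 tested genes of the HLA-D region 7 matched a RefSeq promoter. Of these 6 held the motif in either orientation, as did 14.1% of all 35116 promoter windows of the same length. HLA-DPA1 and CD74 rose but held no motif in their windows. HLA-DMA, named after its values were seen, held the motif but was not called (adjusted p = 0.173 in edgeR's quasi-likelihood test). HLA-DQB1, also named after its values were seen, had a log2 change of 2.78, or 2.17 to 3.76 with single libraries left out. Its call was lost without sgEZH2-2 library 1 or 3, among others. A match is a run of letters, and binding was not measured.

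The chains of the peptide-binding molecules rose the most in this group. HLA-DRA, the alpha chain of HLA-DR (chromosome 6, 32439842 to 32445046, plus strand), was at 8.81 and 10.3 CPM in the controls and at 41.7, 42.2 and 46.1 CPM with sgEZH2-2. The log2 fold change was 2.18 ± 0.23 (SE, adjusted p = 0.000264), with no overlap between the groups. HLA-DRB1 rose from 2.98 and 2.93 CPM to 14.9, 16.3 and 17.1 CPM (log2 2.44), and HLA-DPA1 from 1.07 and 1.56 CPM to 11.3, 10.5 and 10.5 CPM (log2 3.02). HLA-DPB1, named after its values were seen, went from 0.213 and 0.652 CPM to 3.80, 4.41 and 3.97 CPM (log2 3.18). HLA-DRB1 and HLA-DRB5 are near-identical copies and HLA-DPA1 and HLA-DPB1 overlap on opposite strands, so reads may have been split or shared between them.

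Genes that load class II molecules rose less. CD74, the invariant chain that guides class II through the cell, was at 13.2 and 12.3 CPM and then at 26.7, 33.7 and 31.7 CPM (log2 1.27 ± 0.12, adjusted p = 0.000138). HLA-DMB, of the peptide exchanger HLA-DM, went from 2.27 and 1.89 CPM to 7.04, 7.32 and 6.48 CPM (log2 1.74). CIITA, named after its values were seen, was at 17.5 and 17.5 CPM in the controls and at 22.8, 26.3 and 22.0 CPM with the guide. Its log2 change of 0.44 (adjusted p = 0.0212) was not called without control 1, control 2 or sgEZH2-2 library 2, where the adjusted p reached 0.108. Against sgEZH2-1 directly, 8 of the 15 members were higher with sgEZH2-2 and 0 were lower, where 11.5% and 10.4% of all tested genes were. HLA-DRA was 1.23 higher (log2, adjusted p = 0.00135) and CD74 was 1.03 higher (adjusted p = 0.000134) than with sgEZH2-1.

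Leukocytes carry class II genes, so their markers were read beside this result. The 8 leukocyte markers summed to 26.4 to 27.8 CPM in the controls and 40.4 to 45.4 CPM with sgEZH2-2, and CD74 was the only one called. CD3E, which defines T cells, was at 0 in every library.

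Some class I presentation and interferon genes rose as well. Of 24 class I genes 6 rose (25%, against 6.18% of all tested genes) and 0 fell (median log2 0.16). HLA-B, a classical class I heavy chain, was at 97.5 and 92.9 CPM in the controls and at 156, 171 and 171 CPM with the guide (log2 0.80 ± 0.06, adjusted p = 4.60e-05), although its gene overlaps that of HLA-C in the annotation. HLA-F, a nonclassical chain, rose from 7.67 and 8.41 CPM to 14.2, 15.3 and 13.7 CPM (log2 0.84). HLA-E, the ligand of NKG2A, had a log2 change of 0.36, and PSMB9, a subunit of the immunoproteasome, of 0.39. Without control 2 their adjusted p was 0.0597 and 0.0733, and 2 class I genes were called in all.

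Of 54 genes induced by type I interferon 14 rose (25.9%, against 6.18% of all tested genes) and 1 fell (median log2 0.21). OASL, an antiviral protein of the oligoadenylate synthetase family, was at 60.4 and 55.6 CPM in the controls and at 109, 101 and 108 CPM with sgEZH2-2 (log2 0.87, adjusted p = 5.95e-05). RSAD2, the antiviral enzyme viperin, went from 3.054 and 2.9996 CPM to 11.9, 9.83 and 12.3 CPM (log2 1.90). HERC5, the ligase of ISG15, rose by 0.62 and IFITM2, which blocks viral entry, by 0.56. The rises numbered 7 without control 1. The 1 fall was lost without either control, the second sgEZH2-1 library or any sgEZH2-2 library, and 2 fell without the first sgEZH2-1 library. Compared directly with sgEZH2-1, 11 of these genes were higher and 7 lower, where 11.5% and 10.4% of all tested genes were. The guides thus did not differ in 1 direction over the list. OASL was 0.37 higher with sgEZH2-2 (log2, adjusted p = 0.0028) while RSAD2 was 0.84 lower with it (adjusted p = 0.00124).

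Some developmental transcription factors, a class known as targets of PRC2, rose. Of 49 tested homeobox genes outside the HOX clusters 13 rose and 0 fell (median log2 0.29), and of 43 other developmental factors 12 rose and 1 fell (median 0.22). KLF9, a Krüppel-like factor, went from 1.21 and 1.11 CPM to 6.35, 6.61 and 6.25 CPM (log2 2.46). Without control 1 the homeobox rises numbered 4 and the others 7. The homeobox rises numbered 6 without control 2 and 8 without sgEZH2-2 library 2. The 1 fall was lost without control 1, the second or the third sgEZH2-1 library, or sgEZH2-2 library 1 or 2.

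Several of these factors had only 1 to 3 counts in the controls, so a ratio with its exact 95% counting interval is given. Such genes entered the test through guide libraries and were named by their adjusted p. The interval does not allow for that choice, so it is no separate support for the rise. EBF4, of the early B-cell factor family, was at 0 and 0.0652 CPM in the controls and at 1.31, 1.49 and 1.14 CPM with the guide, a ratio of 38.7 (6.65 to 1556). MEIS3, a partner of HOX proteins, was at 0 and 0.0652 CPM and then at 0.828, 1.49 and 1.07 CPM, a ratio of 32.8 (5.60 to 1326). DACH1, a corepressor of eye and limb development, was at 0.0710 and 0.0652 CPM and then at 1.31, 0.944 and 1.14 CPM, a ratio of 16.8 (4.39 to 143). All 3 were near 1 CPM with the guide, so the rises are wide in fold and small in transcripts.

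Most tested genes of the HOX clusters were not called, though the share that rose was 13.6%, against 6.18% of all tested genes. Of 22 tested HOX genes 3 rose and 0 fell (median log2 0.13), and 1 rose without either control. HOXB9 was at 0.213 and 0.0652 CPM in the controls and at 1.24, 1.42 and 0.992 CPM with the guide (log2 3.08), and HOXD8 had a log2 change of 1.46. Their adjusted p was 0.0546 without control 2 for HOXB9 and 0.0693 without control 1 for HOXD8. PRC1, the other Polycomb complex, had 2 of 23 members higher, RNF2 and BCORL1. That is 8.70%, near the 6.18% of all tested genes. BCORL1, a cofactor of a variant PRC1, rose from 9.30 and 8.41 CPM to 16.3, 20.1 and 16.9 CPM (log2 1.00, adjusted p = 0.000616). RNF2, the catalytic subunit, had a log2 change of 0.57 that was not called without either control or any single sgEZH2-2 library (adjusted p up to 0.151).

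Genes of neurons were a further group. Of 48 listed genes of neuronal adhesion and synapses 23 had enough counts to be tested. Of these 9 rose and 0 fell (median log2 0.23). Members near 0 in the controls, such as CNTNAP2 and GABRQ, entered through guide libraries, so the lack of falls rests partly on the filter. CNTNAP2, a neurexin-like adhesion protein, was at 0 and 0.0652 CPM in the controls and at 4.004, 4.405 and 3.432 CPM with sgEZH2-2, a ratio of 116 (20.5 to 4611). GABRQ, a subunit of the GABA-A receptor, was at 0.0710 and 0.130 CPM and then at 4.69, 5.82 and 5.03 CPM, a ratio of 50.6 (17.1 to 247). NRCAM, a neuronal adhesion molecule, started higher, at 6.04 and 6.85 CPM, and reached 13.5, 14.9 and 14.2 CPM (log2 1.14, adjusted p = 0.000175). NECTIN3, a cell adhesion protein, went from 0.0710 and 0.522 CPM to 4.90, 4.01 and 4.42 CPM (log2 3.83). Without control 2 the rises numbered 6.

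Of 49 axon guidance genes 12 rose and 1 fell (median log2 0.22), among them NEO1. EFNB3, a ligand of Eph receptors, was at 0.142 and 0.261 CPM in the controls and at 4.83, 3.93 and 4.73 CPM with the guide (log2 4.41, adjusted p = 2.91e-05). EPHB6, a kinase-dead Eph receptor, rose from 1.7045 and 1.4998 CPM to 5.94, 5.59 and 5.64 CPM (log2 1.83). NRP2, a coreceptor of semaphorins, rose from 67.5 and 63.3 CPM to 89.5, 90.2 and 95.7 CPM (log2 0.49). The rises numbered 6 without control 1 or sgEZH2-2 library 3, and 5 without control 2 or sgEZH2-2 library 2, and the 1 fall was lost without control 2. Of 29 channel genes 6 rose and 0 fell (median log2 0.27), and 3 rose without either control or without sgEZH2-2 library 2. KCNQ1, a voltage-gated potassium channel, went from 2.2727 and 1.4998 CPM to 5.80, 6.06 and 7.17 CPM (log2 1.75, adjusted p = 0.00186), and it was 1.09 higher than with sgEZH2-1 (log2, adjusted p = 0.00511).

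**Figure D2:**
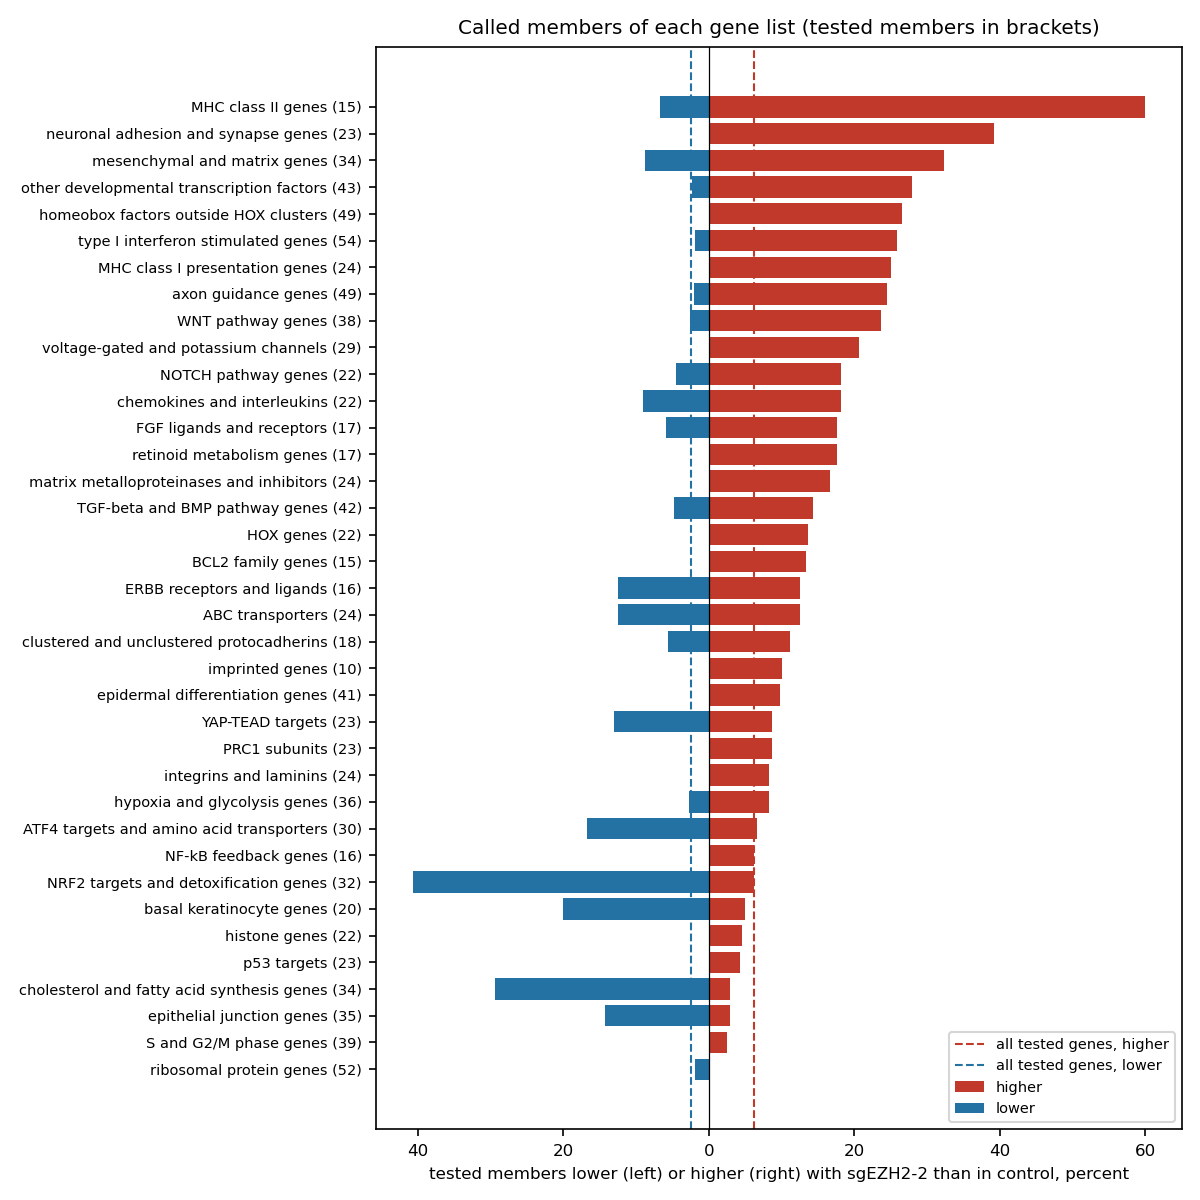
Bars give the percent of tested members of each gene list that were called higher (right, red) or lower (left, blue) with sgEZH2-2, for lists with at least 10 tested and 1 called member, cell type markers left out, and dashed lines give the shares over all tested genes (6.18% and 2.5%). MHC class II has the longest bar to the right (60.0%) and the NRF2 list the longest to the left (40.6%).

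Mesenchymal and matrix genes moved both ways. Of 34 tested 11 rose and 3 fell (median log2 0.44). FN1, fibronectin, was at 1.21 and 0.782 CPM in the controls and at 5.59, 5.51 and 4.88 CPM with sgEZH2-2 (log2 2.42, adjusted p = 8.85e-05). LOX, which crosslinks collagen, rose from 2.84 and 3.26 CPM to 12.01, 9.91 and 9.84 CPM (log2 1.79). ITGA5, the integrin that binds fibronectin, rose from 14.7 and 13.8 CPM to 27.3, 28.4 and 27.2 CPM (log2 0.95). CDH2, N-cadherin, a usual mesenchymal marker, fell from 26.3 and 23.6 CPM to 12.8, 12.6 and 13.8 CPM (log2 -0.93 ± 0.08 SE, adjusted p = 0.000121). The rises numbered 7 without control 1 or sgEZH2-2 library 3, and 6 without control 2.

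Fibroblast markers were read beside this group. The 9 markers summed to 6.13 to 7.24 CPM in the controls and 11.045 to 14.081 CPM with sgEZH2-2. COL1A1, named after its values were seen, was the only marker tested; its call was lost without either control, the second sgEZH2-1 library or sgEZH2-2 library 2 or 3, COL1A2 was at 0 in every library, and the part of fibroblasts in the result was not tested. Endothelial markers summed to 177 to 184 CPM in the controls and 143 to 160 CPM with the guide. Most of that sum was CDH5, an endothelial cadherin named after its values were seen, at 173 and 180 CPM in the controls and at 139, 153 and 156 CPM with sgEZH2-2. Its log2 change of -0.24 (adjusted p = 0.0364) was lost without any single library other than the first sgEZH2-1 library, with an adjusted p of up to 0.16. KDR, a receptor of the same lineage, was at 0 in every library.

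Single genes of matrix proteolysis and of the WNT and TGF-beta pathways were also called. MMP1, interstitial collagenase, was at 30.5 and 30.5 CPM in the controls and at 67.7, 63.2 and 65.6 CPM with sgEZH2-2 (log2 1.10 ± 0.11 SE, adjusted p = 0.000174). It was among 4 of 24 tested metalloproteinases and inhibitors that rose, with 0 lower, and 2 rose without either control. AXIN2, a feedback gene of WNT signalling, went from 0.355 and 0.196 CPM to 3.38, 4.33 and 4.42 CPM (log2 3.85, adjusted p = 0.000122). Of 38 WNT pathway genes 9 rose and 1 fell (median log2 0.17), and 6 rose without control 2. DKK3, a secreted protein of the Dickkopf family, was the 1 that fell, from 96.2 and 89.3 CPM to 60.5, 64.7 and 65.2 CPM (log2 -0.55). TCF7, a nuclear effector of WNT signals, had a log2 change of 0.98. TGFBR1, the type I receptor of TGF-beta, rose from 15.6 and 20.2 CPM to 31.1, 30.0 and 31.1 CPM (log2 0.78). In that pathway 6 of 42 genes rose (14.3%) and 2 fell (4.76%), against 6.18% and 2.5% of all tested genes. Without control 2, 3 members rose. The falls numbered 1 without any single library other than the first sgEZH2-1 library.

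Calls among growth factor receptors and ligands were few in number, but with all libraries their shares lay above those of all tested genes. In the FGF list 17.6% rose and 5.88% fell, and in the ERBB list 12.5% rose and 12.5% fell. Of all tested genes 6.18% rose and 2.5% fell. Each list share rests on 1 to 3 genes. Of 17 FGF ligands and receptors 3 rose (1 without control 2) and 1 fell (0 without either control or sgEZH2-2 library 1 or 2). Of 16 ERBB receptors and ligands 2 rose and 2 fell, with 1 rise without either control or sgEZH2-2 library 2 or 3, and 1 fall without either control, the second sgEZH2-1 library or any sgEZH2-2 library. FGFR1, a receptor of fibroblast growth factors, was at 0.426 and 0.456 CPM in the controls and at 4.56, 5.51 and 5.03 CPM with sgEZH2-2 (log2 3.48, adjusted p = 3.26e-05). EGFR, the epidermal growth factor receptor, was at 547 and 568 CPM and then at 490, 478 and 447 CPM (log2 -0.24, adjusted p = 0.0360). The call of EGFR was lost without either control, without the second sgEZH2-1 library or without any sgEZH2-2 library, with an adjusted p of up to 0.161. NRG1, a ligand of ERBB receptors, fell from 25.0 and 27.7 CPM to 16.0, 18.2 and 17.5 CPM (log2 -0.61, adjusted p = 0.00198) and kept its call without any single library.

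Among lists with at least 10 tested members, the greatest share of falls was in the detoxification genes of NRF2, the transcription factor that answers oxidative and electrophilic stress. Of 32 tested members 13 fell (40.6%, against 2.5% of all tested genes) and 2 rose, with a median log2 change of -0.16. AKR1C2, an aldo-keto reductase, was at 1575 and 1701 CPM in the controls and at 1027, 1090 and 1063 CPM with sgEZH2-2 (log2 -0.63 ± 0.06 SE, adjusted p = 0.000187). AKR1C3 fell from 339 and 358 CPM to 227, 242 and 238 CPM (log2 -0.57), though the AKR1C genes are close copies and reads may have been split among them. ABCC2, an efflux pump of conjugated drugs, fell from 61.6 and 58.9 CPM to 41.8, 43.0 and 39.4 CPM (log2 -0.54). FTL, the ferritin light chain, fell from 425 and 394 CPM to 309, 317 and 311 CPM (log2 -0.39, adjusted p = 0.000725). In each of these all 3 guide libraries lay below both controls, as in all 328 called falls.

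Other members, named after their values were seen, moved less or not past the threshold. NQO1, a quinone reductase, was at 569 and 574 CPM and then at 475, 453 and 460 CPM (log2 -0.30, adjusted p = 0.00348). GCLC, the catalytic subunit of the first enzyme of glutathione synthesis, fell by 0.39 on the log2 scale. GCLM, its modifier subunit, was at 99.1 and 117 CPM and then at 119, 101 and 101 CPM, with groups that overlapped (adjusted p = 0.962). Without either control 8 members fell. The 2 rises numbered 0 without either control or sgEZH2-2 library 2 or 3, and 1 without the second or the third sgEZH2-1 library or sgEZH2-2 library 1. Directly against sgEZH2-1, 14 of the 32 were lower with sgEZH2-2 and 7 were higher, where 10.4% and 11.5% of all tested genes were. FTL was 0.43 lower (log2, adjusted p = 0.000152) and ABCC2 0.44 lower (adjusted p = 0.000841) than with sgEZH2-1.

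Sterol and fatty acid synthesis genes had small falls. Of 34 tested 10 fell and 1 rose (median log2 -0.09). ACAT2, which feeds acetyl units into sterol synthesis, was at 244 and 243 CPM in the controls and at 174, 166 and 183 CPM with sgEZH2-2 (log2 -0.48, adjusted p = 0.00259). NSDHL, a later enzyme of the pathway, was at 99.1 and 93.0 CPM and then at 71.4, 71.7 and 72.8 CPM (log2 -0.42), and its adjusted p was 0.0827 without control 1. The falls numbered 1 without control 1, 5 without control 2, 6 without the second sgEZH2-1 library, and 3, 5 and 5 without sgEZH2-2 library 1, 2 or 3. The 1 rise was lost without either control, the second sgEZH2-1 library or sgEZH2-2 library 2 or 3. SCD, a desaturase named after its values were seen, was at 3477 and 3550 CPM in the controls and at 3559, 3661 and 3659 CPM with the guide (adjusted p = 0.755). With sgEZH2-1 it stood at 1814, 1561 and 1506 CPM, a direct difference of 1.16 (log2, adjusted p = 3.59e-06). Over the list 26 of 34 members were higher with sgEZH2-2 than with sgEZH2-1 and 1 was lower, where 11.5% and 10.4% of all tested genes were.

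Genes of the keratinocyte programme changed in part. Of 20 basal keratinocyte genes 4 fell and 1 rose. KRT5, a basal keratin, was at 2106 and 1952 CPM in the controls and at 1551, 1563 and 1621 CPM with sgEZH2-2 (log2 -0.36, adjusted p = 0.00727, or 0.0739 without control 1). CAV1, the coat protein of caveolae, fell from 541 and 598 CPM to 413, 347 and 384 CPM (log2 -0.58, adjusted p = 0.000727). TNC, tenascin C, a matrix protein of wounds, rose from 8.88 and 6.98 CPM to 20.7, 15.7 and 18.5 CPM (log2 1.21). Without control 1 the falls numbered 1, and without control 2, the second sgEZH2-1 library or sgEZH2-2 library 2 or 3 they numbered 2. Without the first sgEZH2-1 library 2 rose. Among 41 epidermal differentiation genes 4 rose and 0 fell (median log2 0.01). The rises were 9.76% of the list, near the 6.18% of all tested genes. S100A9, a calgranulin of inflamed epidermis, rose from 14.0 and 10.8 CPM to 25.9, 29.8 and 26.5 CPM (log2 1.15), and PI3, the protease inhibitor elafin, from 1.99 and 1.70 CPM to 5.59, 5.74 and 6.64 CPM (log2 1.70).

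Among 35 junction genes 5 fell and 1 rose. DSC3, a desmosomal cadherin, was at 149 and 159 CPM in the controls and at 125, 115 and 119 CPM with the guide (log2 -0.36, adjusted p = 0.00819, or 0.0714 without control 2). PKP1, a desmosomal plaque protein, had a log2 change of -0.31, with an adjusted p of 0.0841 without control 1. Falls in this list numbered 3 without control 1, the second sgEZH2-1 library or sgEZH2-2 library 1, 2 without sgEZH2-2 library 2 or 3, and 1 without control 2. The 1 rise was lost without control 2 or sgEZH2-2 library 2, while 3 rose without the first sgEZH2-1 library and 2 without sgEZH2-2 library 1. Of 11 wound and simple epithelial keratins 0 were called in edgeR or DESeq2, with 0 at an unadjusted p under 0.05.

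Several groups showed few or no calls. Of 39 genes of S and G2/M phase 1 rose and 0 fell (median log2 0.02), and of 14 CDK inhibitors and senescence genes 0 were called in edgeR (4 at an unadjusted p under 0.05) and 1 in DESeq2. The 1 S and G2/M rise was lost without control 2 or sgEZH2-2 library 2 or 3. Of 35 nuclear and mitochondrial genes of oxidative phosphorylation 0 were called by either tool, with 3 at an unadjusted p under 0.05. Of 52 ribosomal protein genes 1 fell, or 0 without either control, the second sgEZH2-1 library or any sgEZH2-2 library. Over the 36 hypoxia and glycolysis genes 3 rose (1 without control 1, 5 without the first sgEZH2-1 library) and 1 fell (2 without that library), and that 1 was VEGFA, the vascular growth factor, which went from 145 and 140 CPM to 107, 106 and 107 CPM (log2 -0.41, adjusted p = 0.000591). No cancer-testis gene had enough counts to be tested. A missing call does not show that these genes were unchanged.

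Further falls were seen among the largest and the most abundant. OLR1, a receptor of oxidized lipoprotein (chromosome 12, 10158301 to 10172138, minus strand), was at 33.5 and 40.6 CPM in the controls and at 18.0, 17.9 and 17.6 CPM with sgEZH2-2 (log2 -1.06 ± 0.10 SE, adjusted p = 0.000128). TMEM52B, which overlaps it on the other strand, went from 9.73 and 10.1 CPM to 5.80, 5.27 and 5.42 CPM (log2 -0.85), and without the strand setting the reads of these genes cannot be told apart. ABCG2, an efflux pump of the ABC transporter list, fell from 42.5 and 41.6 CPM to 22.1, 22.9 and 24.6 CPM (log2 -0.86). TRIM16, a ubiquitin ligase, fell from 138 and 130 CPM to 88.4, 86.8 and 90.8 CPM (log2 -0.60). These 4 kept their call without any single library.

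How far sgEZH2-2 stood from the other guide was read from the direct test. Between the guides 2874 genes differed (21.9% of those tested), 1511 higher and 1363 lower with sgEZH2-2. These counts were 937 and 754 without the second sgEZH2-1 library, 829 and 692 without sgEZH2-2 library 2, and 835 and 737 without library 3. Of the 811 rises against control, 201 were higher than with sgEZH2-1, 105 were lower and 505 were not called in the direct test. Of the 328 falls, 130 were lower than with sgEZH2-1, 34 were higher and 164 were not called. Against control 20.8% of tested genes were called with sgEZH2-1, 11.3% higher and 9.51% lower. Both guides are compared with the same 2 controls, so their values against control are only set side by side.

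Some rises stood above the other guide as well. STC1, the hormone stanniocalcin, was at 1.85 and 2.87 CPM in the controls, at 3.40, 2.67 and 2.24 CPM with sgEZH2-1 and at 8.42, 9.28 and 9.08 CPM with sgEZH2-2. The direct difference was 1.69 (log2, adjusted p = 0.000256). EGR2, an early growth response factor, was at 8.88 and 8.67 CPM in the controls, at 13.2, 11.97 and 9.17 CPM with sgEZH2-1 and at 33.6, 26.5 and 34.7 CPM with sgEZH2-2, a direct difference of 1.47. SULF1, which trims sulfates from heparan chains, was 1.45 higher and MMP1 1.39 higher than with sgEZH2-1. In these 4 genes the sgEZH2-2 libraries lay above every library of the other groups. They were chosen for large direct differences among called genes, so this separation is no further support.

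Other rises were smaller than with sgEZH2-1. MAP1B, a microtubule-associated protein of neurons, was at 6.39 and 6.13 CPM in the controls, at 34.6, 35.7 and 29.1 CPM with sgEZH2-1 and at 15.1, 12.1 and 12.8 CPM with sgEZH2-2, a direct difference of -1.31 (log2, adjusted p = 4.89e-05). NEO1 was at 63.3, 62.3 and 54.8 CPM with sgEZH2-1, and 0.54 lower with sgEZH2-2 (adjusted p = 0.000943). RUNX3 was at 6.72, 8.55 and 8.82 CPM with sgEZH2-1, and the direct difference of -0.14 was not called (adjusted p = 0.504). L1CAM, a neuronal adhesion molecule, was at 7.34, 9.30 and 9.45 CPM with sgEZH2-1 and at 1.79, 1.73 and 1.75 CPM with sgEZH2-2, where the controls stood at 0.710 and 0.848 CPM. Its direct difference was -2.30 (adjusted p = 2.23e-05). Its call against control (log2 1.16) was lost without either control or any single sgEZH2-2 library, with an adjusted p of up to 0.141.

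**Figure D3:**
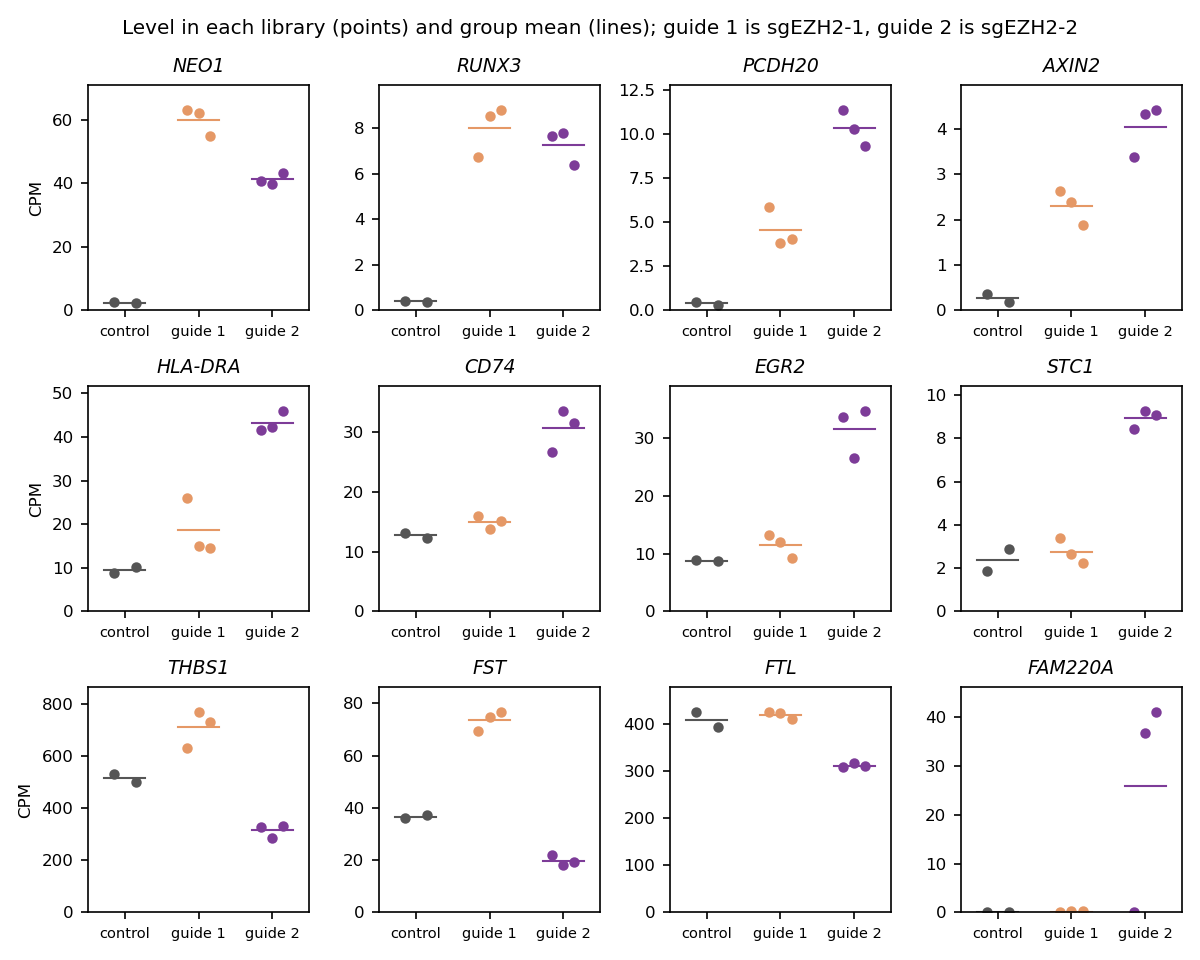
Points give the level in CPM of 12 genes in each library and lines give group means, with 2 controls, 3 sgEZH2-1 (guide 1) and 3 sgEZH2-2 (guide 2) libraries. NEO1 and RUNX3 rise with both guides, HLA-DRA, CD74, EGR2 and STC1 stand highest with sgEZH2-2, THBS1 and FST lie below the controls with sgEZH2-2 and above them with sgEZH2-1, and FAM220A is seen in only 2 of the 3 sgEZH2-2 libraries.

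Some genes lay on opposite sides of the controls with the 2 guides. Those below were chosen for opposite calls, so the separation of their groups is no further support. THBS1, the matrix protein thrombospondin 1, was at 532 and 499 CPM in the controls, at 630, 770 and 732 CPM with sgEZH2-1 and at 326, 286 and 333 CPM with sgEZH2-2. No library of 1 group overlapped another group, and the log2 change with sgEZH2-2 was -0.71 ± 0.09 (SE, adjusted p = 0.000727). FST, follistatin, which binds activin, was at 36.0 and 37.4 CPM, at 69.6, 75.0 and 76.9 CPM and at 22.0, 18.2 and 19.1 CPM in the same order. CPA4, a secreted carboxypeptidase, was at 9.45 and 7.43 CPM, at 21.1, 21.7 and 23.8 CPM and at 4.07, 3.85 and 3.97 CPM. CPA4 had a log2 change of -1.08 with sgEZH2-2 (adjusted p = 0.00111), one of the few falls beyond 2-fold. LRG1, a secreted glycoprotein, went the other way, at 59.3 and 53.5 CPM in the controls, at 37.9, 40.8 and 43.4 CPM with sgEZH2-1 and at 76.9, 86.2 and 79.5 CPM with sgEZH2-2 (log2 0.52, adjusted p = 0.0032). NGFR, the low-affinity neurotrophin receptor, was at 61.4 and 53.4 CPM, at 40.3, 42.1 and 44.6 CPM and at 74.3, 90.2 and 78.6 CPM. Its call against control was lost without control 2 (adjusted p = 0.0909).

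**Figure D4:**
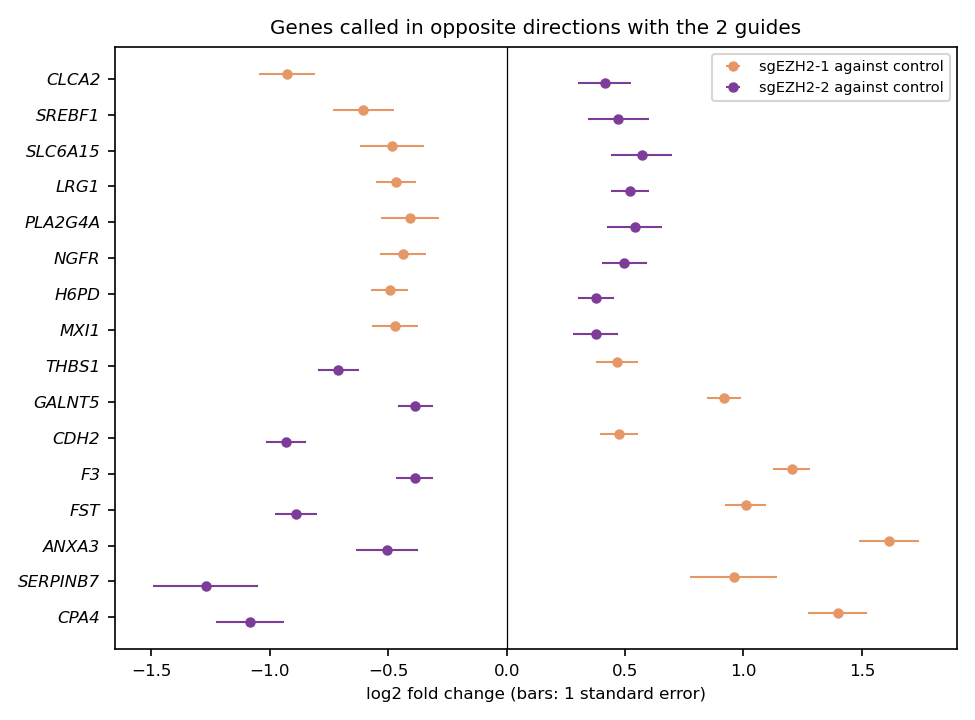
Points give the log2 fold change against control for the 16 genes with the largest direct difference among those called in opposite directions with the 2 guides, with bars of 1 standard error. CPA4 lies at -1.08 with sgEZH2-2 (purple) and at 1.40 with sgEZH2-1 (orange), and LRG1 at 0.52 and -0.47.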

How the data were processed

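RNA of HSC-5 cells was read in 8 libraries. The authors deposited unnormalized whole-number read counts for each gene. FastQC, STAR, DESeq and build hg38 are named, per the submitters' processing notes. Their versions are not given in the sources, nor are the counter, its annotation or its strand setting. The table had 0 unused columns of library values and 0 unnamed rows, and its columns carry no replicate number.

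Low counts were filtered with filterByExpr at a minimum count of 10, and counts were scaled by TMM. One fit of the 3 groups (control, sgEZH2-1 and sgEZH2-2) in edgeR 4.0.16 under R 4.3.3 gave every comparison. Each adjusted p is from its two-sided quasi-likelihood F test adjusted by Benjamini-Hochberg across 13124 tested genes, at a threshold of 0.05, and a gene is called where it passes. Standard errors (SE) of log2 fold changes come from the F statistic. Alternatives were RLE scaling, DESeq2 1.42.0, 2 other filters, a fit of only the groups compared, and leaving out each library.

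The genes, gene lists and tests were chosen with earlier results of these data known. Genes named with values were PRC2 core members, the 15 largest called rises and falls with a mean count of at least 50 and all sgEZH2-2 libraries on 1 side of both controls, under the same conditions the 5 highest-level changes each way of at least 1.5-fold, up to 4 called genes per list by adjusted p, the 8 largest direct differences each way among genes called there and against control with a mean count of at least 50 over the 8 libraries, up to 8 genes each way that the guides moved oppositely, and 5 called genes with 0 control counts. Others are marked as named after their values were seen, and only some of the genes so chosen are described. Lists were matched by symbol and described by counts with no test. Coordinates are 1-based, from GENCODE, which held 19873 symbols directly and 306 through a renamed gene, with 115 unmatched. Folds over a floor of 3 counts over both controls carry no interval for the guide counts. Exact 95% intervals cover counting error only: no molecular identifiers are named for these reads, which may repeat a molecule. They also do not allow for the choice of the genes on the same counts.

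The fit was also run on simulated data with 12978 genes, where 50 genes were changed at each fold in sgEZH2-2 alone. Libraries were drawn independently, with the spread estimated by the fit and levels averaged over all libraries. The fit recovered 68%, 78% and 98% of genes raised 1.5, 2 and 4 times in sgEZH2-2 against control. It recovered 86% of those set to 0.5 times, and 6.25% of its calls were of unchanged genes. The real data held more changes, with both guides, and may hold technical replicates, so these rates need not apply to them.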

Additional observations from a re-analysis of the deposited data

Results flagged for a closer look

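The genes below were called in opposite directions against control with the 2 guides, and the difference between the guides was called in the direct test. Values are log2 differences of sgEZH2-2 minus sgEZH2-1 from edgeR's quasi-likelihood test. They were chosen by the size of that difference.

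Lower with sgEZH2-2 than with sgEZH2-1 were CPA4 (-2.48), SERPINB7, a serpin of keratinocytes (-2.23), ANXA3, an annexin (-2.12), FST (-1.90) and F3, tissue factor (-1.59). CDH2 (-1.41), GALNT5, which starts O-glycans (-1.30), and THBS1 (-1.17) followed. SERPINB7 was at 2.70 and 2.61 CPM in the controls, at 5.25, 5.13 and 5.11 CPM with sgEZH2-1 and at 0.897, 1.10 and 1.30 CPM with sgEZH2-2. F3 was at 171 and 174 CPM, at 374, 403 and 415 CPM and at 140, 118 and 137 CPM in the same order. In both genes no library of 1 group overlapped another group. The fall of F3 against control (log2 -0.39) had an adjusted p of up to 0.0726 without either control, and that of ANXA3 (log2 -0.51) was lost without 6 of the 8 libraries in turn, with an adjusted p of up to 0.197. GALNT5 was not called without control 2 (adjusted p = 0.0855).

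Higher with sgEZH2-2 than with sgEZH2-1 were CLCA2, a regulator of chloride channels (1.34), SREBF1, the factor that drives lipid synthesis genes (1.08), SLC6A15, an amino acid transporter (1.05), and LRG1 (0.99). PLA2G4A, a phospholipase (0.95), NGFR (0.93), H6PD, a sugar phosphate dehydrogenase of the endoplasmic reticulum (0.87), and MXI1, an antagonist of MYC (0.85), followed. SREBF1 was at 236 and 194 CPM in the controls, at 122, 138 and 164 CPM with sgEZH2-1 and at 263, 325 and 306 CPM with sgEZH2-2, and its adjusted p against control was 0.04998. Of these 8, LRG1 alone kept its call against control without any single library. The highest adjusted p was 0.166 for CLCA2, 0.259 for SREBF1, 0.119 for SLC6A15, 0.1 for PLA2G4A, 0.0909 for NGFR, 0.0801 for H6PD and 0.22 for MXI1.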

How the results depend on the processing

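Rises numbered 831 with RLE scaling, 723 in DESeq2, 824 without a filter, 614 at a minimum count of 50 and 805 with only the 2 groups compared; falls numbered 308, 251, 274, 253 and 218. Rises of at least 2-fold dropped from 406 to 219 at a minimum count of 50, which tests fewer genes of low level. Falls of at least 2-fold numbered 5 in DESeq2 and 4 at that minimum. Leaving out single libraries gave 439 to 957 rises, 82 to 408 falls, 274 to 423 rises and 5 to 14 falls of at least 2-fold. It gave 829 to 1536 genes higher and 692 to 1469 lower in the direct comparison of the guides, and values of EZH2 between -0.32 and -0.24. With 1 control left, that library is assumed to vary like the other groups. EZH2 was at -0.26 without the third sgEZH2-1 library (adjusted p = 0.0473). SUZ12 was at -0.017 without control 1, the 1 reversal among genes chosen by the rule, and at 0.31 without control 2. GCLM, named after its values were seen and not called, ran from -0.12 to 0.11. Of 156 named genes called, 97 kept the call without any single library and 87 in every alternative. For the changes noted here, other than that of the stricter filter, the cause was not tested. No paired analysis was possible because the columns of the table carry no replicate numbers.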

Other observations

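Other pathways had members on both sides of the controls with sgEZH2-2. Of 22 NOTCH pathway genes 4 rose and 1 fell, and 7 were higher and 0 lower than with sgEZH2-1 in the direct test. NOTCH3, a receptor, was at 86.4 and 78.2 CPM in the controls and at 109, 134 and 117 CPM with sgEZH2-2, but its adjusted p of 0.0382 went above the threshold without either control or sgEZH2-2 library 2 or 3, to 0.186 at most. The rises of this list numbered 0 without control 2 or sgEZH2-2 library 3, 1 without the second sgEZH2-1 library, and 2 without control 1 or sgEZH2-2 library 1 or 2. The 1 fall was lost without either control, the second sgEZH2-1 library or sgEZH2-2 library 2 or 3. Of 23 YAP targets 2 rose and 3 fell, where 1 was higher and 10 were lower than with sgEZH2-1. AJUBA, a LIM-domain scaffold, fell from 69.1 and 66.0 CPM to 47.6, 48.5 and 50.2 CPM (log2 -0.47, adjusted p = 0.00152), while CCN2 rose. Without either control 1 of these targets fell, and without either control or sgEZH2-2 library 2 or 3, 1 rose. Of 36 hypoxia and glycolysis genes 19 were higher and 0 lower than with sgEZH2-1. Over all tested genes 11.5% were higher and 10.4% lower in the direct test, which applies to all the lists of this paragraph.

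Of 30 ATF4 targets and amino acid transporters 5 fell and 2 rose, and 3 fell without either control and 2 without sgEZH2-2 library 3. The rises numbered 1 without control 2, the second sgEZH2-1 library or sgEZH2-2 library 2 or 3. SLC1A4, a neutral amino acid transporter, fell from 93.7 and 88.9 CPM to 63.3, 69.9 and 64.4 CPM (log2 -0.47, adjusted p = 0.00282). ATF4 itself was at 376 and 364 CPM in the controls and at 302, 299 and 316 CPM with sgEZH2-2 (log2 -0.27), with an adjusted p of 0.0556 without control 1. Of 15 genes of the BCL2 family 2 rose (13.3%, against 6.18% of all tested genes), both activators of cell death. HRK went from 2.91 and 3.59 CPM to 7.11, 7.87 and 7.02 CPM (log2 1.17, adjusted p = 0.0013), and BMF from 2.49 and 1.76 CPM to 5.45, 4.72 and 5.11 CPM (log2 1.27, adjusted p = 0.00376).

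FAM220A was the 1 called rise whose libraries overlapped the controls. It was at 0 CPM in both controls, at 0, 0.342 and 0.210 CPM with sgEZH2-1 and at 0, 36.9 and 41.2 CPM with sgEZH2-2, so that library 1 of sgEZH2-2 held no count of it. Its adjusted p of 0.0492 was not below the threshold without either control or without the second or the third sgEZH2-1 library, and reached 0.179. Without sgEZH2-2 library 2 or 3, which hold all of its counts with that guide, it did not pass the filter on low counts.

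SULT1A3 and SULT1A4, near-identical copies of a sulfotransferase on chromosome 16, had opposite calls. SULT1A3 fell from 119 and 120 CPM to 61.7, 56.6 and 60.2 CPM with sgEZH2-2, while SULT1A4, named after its values were seen, went from 7.883 and 7.499 CPM to 46.0, 41.0 and 40.7 CPM. Summed over both copies the level was 127 ± 0.28 CPM (SD, n = 2) in the controls and 102 ± 5.17 CPM (SD, n = 3) with sgEZH2-2. Reads of such copies may be assigned to either.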
